A study of Mus musculus with 3 samples.

Results

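The mitochondrial ribosomal protein genes were taken as the protein-coding genes of the mm9 GENCODE vM1 annotation whose symbol is Mrpl or Mrps followed by digits and at most 1 letter. This rule gave 76 of 22350 protein-coding genes on the 19 autosomes and the X chromosome. Of the 76 members, 47 were Mrpl genes, named for the large subunit, and 29 were Mrps genes, named for the small subunit. They lay on 17 autosomes, with none on chromosome 12, 18 or X, and chromosome 11 held 10 of them.

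The mitoribosome translates the few messenger RNAs made from mitochondrial DNA, all of which encode subunits of the respiratory chain and the ATP synthase. Its RNAs are made in the mitochondrion, but its proteins are encoded in the nucleus and imported, so their promoters are read within nuclear chromatin. H2A.Z is a histone variant that replaces H2A in nucleosomes flanking many transcription starts, and H3K27me3 is the mark that Polycomb complexes deposit at silent developmental genes.

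The study asked what the extended acidic patch, a charged surface of H2A.Z, does for its chromatin binding in mouse embryonic stem cells (ESCs), and 3 ChIP-Seq libraries were analysed, 1 per group. Those named H2A.Z WT and AP3 came from KH2-derived ESC lines in which a doxycycline-inducible transgene under a CMV promoter, delivered by lentivirus and sorted for YFP, made YFP-tagged wild-type H2A.Z or a form with 3 acidic patch residues changed. In both, a hairpin aimed at the 3′ untranslated end of the endogenous transcript lowered the cells' own H2A.Z, and chromatin was precipitated with an antibody against GFP. The H3K27me3 library was labelled wild type and precipitated with an antibody against the mark. All 3 samples carry the strain label V6.5 (129SvJaexC57BL/6), although the treatment text names KH2 derivatives, and which clone was sequenced is not given in the sources used here. The cells were grown on mouse embryonic fibroblasts, which were left out at the final passage.

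The data were lists of enriched regions, which hold positions on mm9 without heights or read numbers, so the sequencing depth was unknown and enrichment could be read only as present or absent and by its length. The lists at a P threshold of 1e-09 held 78359 regions over 28.3 Mb for H2A.Z WT, 14599 over 3.50 Mb for H2A.Z AP3 and 16970 over 9.32 Mb for H3K27me3. A gene was called when a region overlapped the 2 kb on either side of any of its annotated transcript starts by at least 1 bp, and its covered bases were counted in these windows. With 1 library per group there was no replicate error and no test was made. The Wilson 95% intervals given with shares cover counting error over genes only, and genes that share a promoter are not independent. The lists measure no RNA, so the cell type could be checked only indirectly. H3K27me3 was called at 40 of 40 Hox gene models, the classic Polycomb targets of ESCs, and no region of any library lay at the pluripotency genes Pou5f1, Nanog or Sox2.

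Wild-type H2A.Z was called at a start of most mitochondrial ribosomal protein genes, the acidic patch mutant at fewer, and H3K27me3 at almost none. The mutant list was also shorter over the whole genome, with 14599 against 78359 regions, and depth was unknown. A gene without a mutant call may therefore still carry the mutant below the threshold. H2A.Z WT was called at 65 of 76 members, or 85.5% (interval 75.9 to 91.7), against 61.7% of all protein-coding genes. H2A.Z AP3 was called at 22 members, or 28.9% (interval 19.96 to 39.96), against 23.2% of all genes. H3K27me3 was called at 1 member, or 1.32% (interval 0.233 to 7.08), against 18.2% of all genes. All 22 members with H2A.Z AP3 also carried H2A.Z WT, and 94.5% of all genes with H2A.Z AP3 did so. The share with regions of both forms was 21.9% over all genes. Of the 65 members with H2A.Z WT, 33.8% (interval 23.5 to 46.0) carried H2A.Z AP3, next to 35.5% of all genes with H2A.Z WT.

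The calls changed little when only the most upstream start of each gene was used, with H2A.Z WT at 65 members (58.8% of all genes), H2A.Z AP3 at 21 (20.8%) and H3K27me3 at 1 (16.9%). In the lists at the stricter threshold of 1e-12, H2A.Z WT was called at 65 members (60.0% of all genes), H2A.Z AP3 at 17 (18.8%) and H3K27me3 at none (15.7%), which allows a share of up to 3.95%. A region at 1e-09 held one at 1e-12 in 63 of the 65 members with H2A.Z WT (94.1% of all genes with the call) and in 14 of the 22 with H2A.Z AP3 (66.5%). The 8 without were Mrpl2, Mrpl19, Mrpl46, Mrps11, Mrps16, Mrps18a, Mrps35 and Mrps36, so the mutant calls at these are the least secure. The lists were not fully nested, as 3 members had H2A.Z WT sequence at 1e-12 that lay outside the list at 1e-09 (5.26% of all genes) and 4 had such H2A.Z AP3 sequence (4.32%).

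Members and genes at large differ in base composition and in how often they carry H3K27me3, and the comparison was repeated on genes alike in each. The 1 kb around the most upstream start held a median of 55.5 CpGs in members (range 24 to 124) and 41 in all genes. Among 4950 genes whose CpG number lay within the quartiles of the members, 83.5% carried H2A.Z WT, 34.9% carried H2A.Z AP3 and 24.8% carried H3K27me3. The members' share thus exceeded that of all genes for H2A.Z WT but was close to that of genes with similar CpG numbers, whereas for H3K27me3 it was below both. For H2A.Z AP3 the members' 28.9% lay above all genes and below genes with similar CpG numbers, and its interval included both shares. Among genes without H3K27me3, H2A.Z WT was called at 54.2% and H2A.Z AP3 at 18.5%. The 75 members without that mark had shares of 85.3% and 28.0%. CpG numbers were not matched in this comparison, with medians of 32 in the genes without H3K27me3 and 56 in these members.

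**Figure D1:**
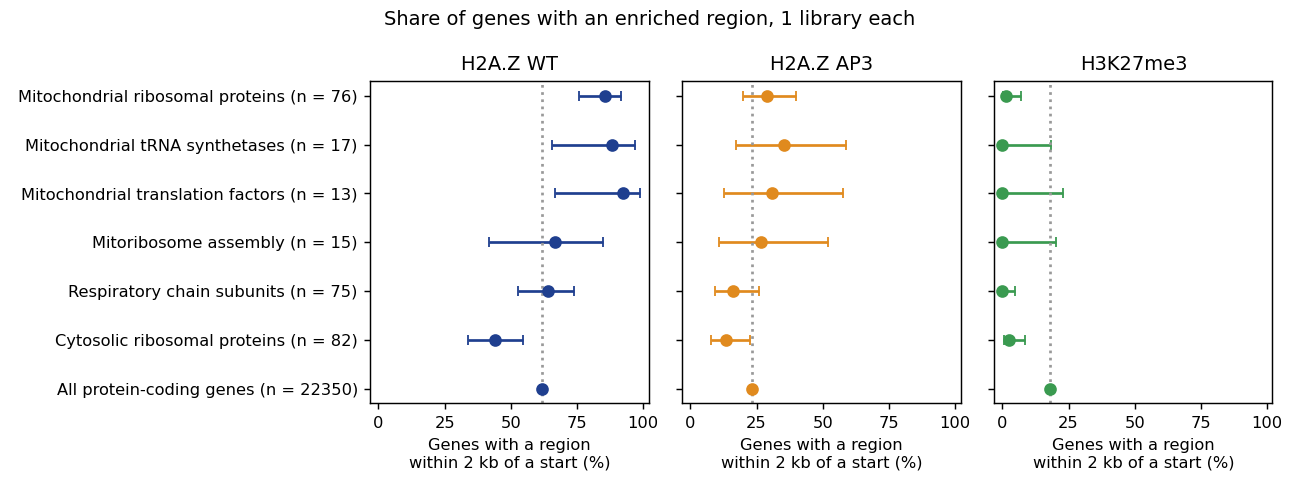
Share of genes (%) with a region within 2 kb of a start in each list at 1e-09 (left to right, wild-type H2A.Z, the mutant and H3K27me3), for the mitochondrial ribosomal protein genes, related gene lists and all protein-coding genes. Whiskers are Wilson 95% intervals, which cover counting error only. The members stand at 85.5%, 28.9% and 1.32%, and all genes at 61.7%, 23.2% and 18.2%.

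Some promoters of the members held sequence motifs, which the choice of members did not use. Motif letters were searched on both strands from 250 bp upstream to 50 bp downstream of the most upstream start. The letters CCGGAAG, bound by Ets-family factors, occurred in 27 members (35.5%) and in 10.8% of all promoters of this length, and in 29.3% of those of cytosolic ribosomal protein genes, whose interval of 20.5 to 39.9 overlapped that of the members (25.7 to 46.7). GCGC and TGCGC parted by any 1 base, the site of nuclear respiratory factor 1 (NRF1), an activator of nuclear genes for mitochondrial proteins, occurred in 11 members (14.5%) and in 6.02% of all promoters. AAGATGGC, which YY1 binds, occurred in 11 members (14.5%) and in 3.29% of all. GGGCGG and CCAAT were about as frequent in members as elsewhere, at 47.4% against 43.5% and at 38.2% against 37.9%. TATAAA occurred in 5 members (6.58%) and in 13.4% of all promoters. Among all genes with H2A.Z WT, CCGGAAG occurred in 13.2%, the NRF1 letters in 7.89%, AAGATGGC in 3.37% and GGGCGG in 56.9%. Motif shares were not computed for genes with CpG numbers like those of the members. Each gene was counted once per motif, and a base could belong to more than 1 motif.

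Sites from promoters on either side of the H2A.Z calls are printed below, read from mm9 5′ to 3′ on the strand of the gene, with the motif in capitals. Mrpl9 (chr3:94247220-94247249, plus strand), Mrpl12 (chr11:120345860-120345889, plus), Mrpl17 (chr7:112959631-112959660, minus) and Mrpl45 (chr11:97176982-97177011, plus) hold an NRF1 site and had no H2A.Z region of either form at 1e-09, although Mrpl12 had 425 bp of H2A.Z WT at 1e-12. Mrps9 (chr1:42908063-42908092, plus) and Mrpl30 (chr1:37947229-37947258, plus) hold one too and had regions of both forms.
Mrpl9: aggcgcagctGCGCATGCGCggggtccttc
Mrpl12: tattgtctccGCGCCTGCGCgtcgcaccgc
Mrpl17: aggctctgatGCGCACGCGCaaacgcggta
Mrpl45: tggtttcattGCGCACGCGCgaacccactg
Mrps9: tgggaggtctGCGCCTGCGCagtctccagg
Mrpl30: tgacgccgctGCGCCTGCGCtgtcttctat
The same 10 letters with 1 free base were thus found at members with and without H2A.Z. Of the 11 members without H2A.Z WT, 4 held the NRF1 letters, as did 7 of the 65 with it. Over all genes the direction was opposite, as these letters were in 7.89% of genes with H2A.Z WT and in 6.02% of all promoters. Among members the CCAAT letters went the other way from the NRF1 letters and were in 29 of the 65 with H2A.Z WT and in none of the 11 without. The Wilson interval of the latter share reaches 25.9%, and that of the former begins at 33.2%. CCAAT was singled out from the 6 motifs after the values were seen. Over all genes it was in 36.4% of those with H2A.Z WT and in 37.9% of all promoters, so it was no more frequent with H2A.Z WT there.

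H2A.Z WT lay close around the starts of the members. The 85 regions at members had a median length of 475 bp (range 50 to 1875), against 400 bp for all H2A.Z WT regions at promoters, and 51 of them covered a start. Where called, a member had a median of 550 covered bases (range 50 to 3000), next to 650 in all genes with the call and 550 in those without H3K27me3. Of the bases covered within 2 kb of the most upstream start, 81.3% lay within 500 bp in members, 59.4% in all genes and 67.2% in genes without H3K27me3. All 65 members with H2A.Z WT had some of it within 500 bp of the most upstream start, whereas 88.9% of all genes called at that start did. Only 1 of the 65 had H2A.Z WT between 1 and 2 kb downstream of that start (1.54%), compared with 23.8% of all genes called at that start and 15.3% of those among them without H3K27me3. A similarly close placement was found in cytosolic ribosomal protein genes and nuclear-encoded respiratory chain genes, with 81.1% and 89.1% of the bases within 500 bp and with 2.86% and 2.08% of called genes covered between 1 and 2 kb downstream.

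Averaged over genes, the H2A.Z WT profile of the members was highest just downstream of the start. In bins of 25 bp its highest value, 56 of 76 members covered (73.7%), was reached at 87, 162 and 187 bp downstream alike, and the profile of all genes was highest at 187 bp with 35.7%. At -13 bp, just upstream, 38 of 76 members were covered. Of the 65 members with H2A.Z WT, 44 had it on both sides of the start within 1 kb (67.7%), 18 on the downstream side only (27.7%) and 3 on the upstream side only (4.62%). Among all genes with H2A.Z WT within 1 kb of the start these shares were 60.7%, 28.7% and 10.6%, so that the downstream share of the members was near that of other genes. The start base itself was covered in 40 of the 65 (61.5%), compared with 46.4% of all genes with H2A.Z WT within 1 kb. The 3 with upstream coverage alone were Mrpl51 with 350 bp, Mrps18c with 400 bp and Mrps12 with 300 bp. Mrps12 encodes the counterpart of the bacterial decoding-centre protein S12. Each of the 3 has a gene on the opposite strand that starts within 1 kb, namely Ncapd2, Helq and Sars2. The region upstream of Mrps12 is therefore also at the promoter of Sars2, the mitochondrial seryl-tRNA synthetase.

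**Figure D2:**
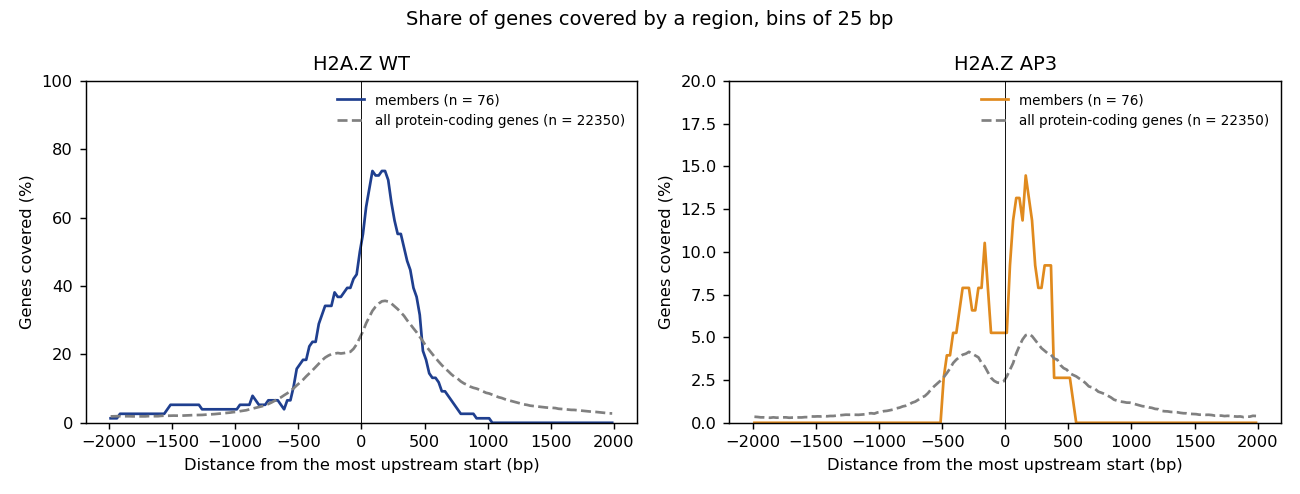
Percentage of genes covered by an H2A.Z WT region (left) or an H2A.Z AP3 region (right) in 25 bp bins against distance (bp) from the most upstream start, for the 76 members (solid) and all 22350 protein-coding genes (dashed); the vertical axes differ. H2A.Z WT at members is highest at 87, 162 and 187 bp downstream with 73.7%, and H2A.Z AP3 has peaks at 162 bp with 14.5% and at -163 bp with 10.5%.

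The longest H2A.Z WT coverage belonged to members with several starts or with a second region upstream. The windows of Mrpl14 (Tmem63b), Mrpl34 (Abhd8), Mrpl53 (Ccdc142) and Mrpl2 (Cul7 and Klc4) also held starts of the genes in brackets. Their covered bases may therefore include bases at promoters of these neighbours. No other gene started in the window of Mrps24. Mrpl14, whose product lies at the interface between the subunits, had 3000 covered bases in 5 regions, no H2A.Z AP3 and no H3K27me3. Of these, 325 bp lay just downstream and 700 bp upstream of its most upstream start, and the longest, chr17:45832001-45832875, lay at an internal start. Mrpl34 had 2325 bp of H2A.Z WT and 350 bp of H2A.Z AP3. Mrps24 had 1833 bp of H2A.Z WT and Mrpl53 1650 bp, and neither had any H2A.Z AP3. Mrpl2 had 1175 bp of H2A.Z WT in 3 regions and 300 bp of H2A.Z AP3. The upstream region of Mrps24, chr11:5616301-5618175, was the longest H2A.Z WT region at any member. Long H2A.Z WT coverage therefore occurred both with and without the mutant.

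The 11 members without H2A.Z WT were Mrpl9, Mrpl12, Mrpl17, Mrpl18, Mrpl24, Mrpl45, Mrpl47, Mrpl49, Mrps14, Mrps18b and Mrps23. None of them had H2A.Z AP3 or H3K27me3 either. At 1e-12, H2A.Z WT was called at Mrpl12 and Mrps23. They included Mrpl12, whose product forms the stalk that recruits translation factors, and Mrpl45, whose product anchors the mitoribosome at the inner membrane. The nearest H2A.Z WT region was 5565 bp from a start of Mrpl18 and 29167 bp from one of Mrpl9, with a median of 17342 bp over the 11. The 65 other members all had H2A.Z WT within 500 bp of a start, so that no member was near the edge of the 2 kb window. The absence did not go with few CpGs, as the 11 had a median of 65 (range 38 to 83) and the 65 a median of 54.

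Opposite-strand starts within 1 kb were annotated for 28 members, and 4 of the 11 members without H2A.Z WT were among them. Mrpl18 starts 16 bp from Tcp1, a subunit of the cytosolic chaperonin. Mrpl47 starts 20 bp from Ndufb5, a subunit of respiratory complex I. Mrpl49 starts 135 bp from Fau, which encodes a cytosolic ribosomal protein, and Mrps18b starts 45 bp from Ppp1r10. H2A.Z WT was called at the other 24 of the 28 (85.7%), next to 41 of the 48 members without such a partner (85.4%). Over all genes the shares were 81.6% with a partner and 59.0% without. The mutant lay at 6 of the 28 (21.4%, interval 10.2 to 39.5) and at 16 of the 48 (33.3%, interval 21.7 to 47.5), and over all genes at 31.4% and 22.1%. The intervals of the members overlapped.

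A partner on the opposite strand went with a more even placement of H2A.Z WT. Members with one had 1.07 covered bases downstream of the start for each one upstream, and members without had 2.10. All genes showed nearly the same ratios, 1.16 and 2.05. The only members that share a promoter with each other were Mrpl46 and Mrps11, on opposite strands of chromosome 7 with nearest starts 53 bp apart. They shared 1 H2A.Z WT region of 50 bp, chr7:85928301-85928350, and 1 H2A.Z AP3 region of 75 bp that began at the same base, so that these entered every count as 2 members but 1 promoter.

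The Mrps18 genes are 3 paralogs of 1 bacterial ribosomal protein whose products occupy different places in the mitoribosome, and they differed in H2A.Z. Mrps18a on chromosome 17 had 475 bp of H2A.Z WT and 25 bp of H2A.Z AP3. Mrps18b, also on chromosome 17, had neither. Mrps18c on chromosome 5 had 400 bp of H2A.Z WT, all upstream of its start, and no H2A.Z AP3. The Ets letters, in either orientation, lay within 30 bp of the start in each of the 3 promoters. They are at chr17:46247915-46247944 (plus strand), chr17:36053325-36053354 (minus) and chr5:101227610-101227639 (plus) and are shown in capitals.
Mrps18a: cacacccctgctCCGGAAGcggaagtgcac
Mrps18b: tgcgcagtcgctCTTCCGGcaggccgtacg
Mrps18c: cgggtcacgtgaCTTCCGGcccgggaagcg
Mrps18a and Mrps18b also hold the YY1 letters just downstream of the start, at chr17:46247953-46247982 (plus) and chr17:36053293-36053322 (minus).
Mrps18a: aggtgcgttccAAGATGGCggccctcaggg
Mrps18b: cggtgtgcgtcAAGATGGCtgcccccttgc
The pair with both sets of letters was thus split between presence and absence of H2A.Z WT.

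Where the mutant was found at members, it covered fewer bases than the wild type in most cases. Summed over members, H2A.Z WT covered 45558 bp and H2A.Z AP3 6250 bp, or 13.7% as much, next to 14.3% over all genes. The 21 H2A.Z AP3 regions at members had a median length of 200 bp, 18 of them overlapped an H2A.Z WT region, and 5 covered a start. Over all promoters 80.8% of H2A.Z AP3 regions overlapped H2A.Z WT. In 17 of the 22 members with both forms the mutant covered fewer bases, from 5.26% of the wild-type bases at Mrps18a to 66.7% at Mrpl22. The median over all 22 was 35.7%.

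The mutant covered at least as many bases as the wild type at 5 of the 22 members (22.7%), compared with 7.32% of all genes with both forms. Mrps31 had 800 bp of H2A.Z WT and 1025 bp of H2A.Z AP3, the most of any member (chr8:23521301-23522325). Mrps25 had 400 bp and 875 bp (chr6:92133476-92134350). Mrpl35 had 475 bp and 600 bp (chr6:71773426-71774025). In Mrps31, Mrps25 and Mrpl35 the mutant region contained the whole wild-type region and the start. At Mrps25 it reached 323 bp upstream of the most upstream start, where no H2A.Z WT was called. The remaining pair, Mrpl46 and Mrps11, had 50 bp and 75 bp from the shared regions described above.

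**Figure D3:**
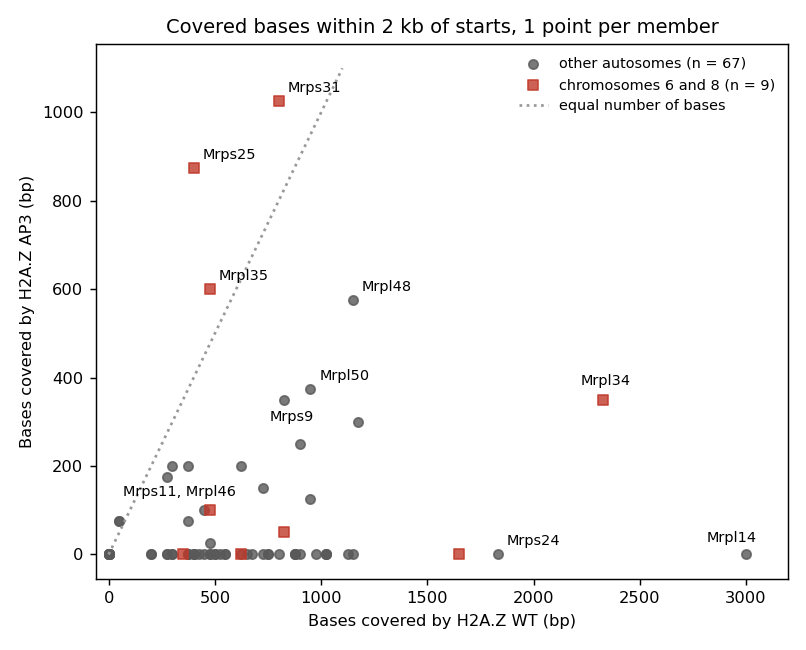
Bases of H2A.Z AP3 (vertical) against bases of H2A.Z WT (horizontal) inside the windows of 2 kb around starts (bp), 1 point per member, with members on chromosomes 6 and 8 as squares and the dotted line marking equal numbers. Mrps31, Mrps25 and Mrpl35, on chromosomes 6 and 8, lie above the line, and Mrpl14 with 3000 bp of H2A.Z WT lies on the horizontal axis.

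Chromosomes 6 and 8 held more H2A.Z AP3 than other autosomes over all genes, 46.8% against 21.3% of genes with the call, and the members were therefore also counted apart. Of the 9 members on them all had H2A.Z WT, next to 72.3% of all genes there, and 6 had H2A.Z AP3 (66.7%, interval 35.4 to 87.9), and of the 67 on other autosomes 56 had H2A.Z WT (83.6%) and 16 had H2A.Z AP3 (23.9%, interval 15.3 to 35.3). The mutant's bases amounted to 37.9% of the wild-type bases on chromosomes 6 and 8 and to 8.64% on the others, and over all genes to 33.3% and 10.7%. The 6 were Mrpl19, Mrpl34, Mrpl35, Mrps25, Mrps31 and Mrps35, whereas Mrpl51, Mrpl53 and Mrps33 had the wild type alone. The part of the chromosome in the larger mutant coverage of Mrps31, Mrps25 and Mrpl35 was not tested. Over all genes with both forms, mutant coverage at least equal to that of the wild type was found in 13.9% on these chromosomes and in 5.61% on the others.

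**Figure D4:**
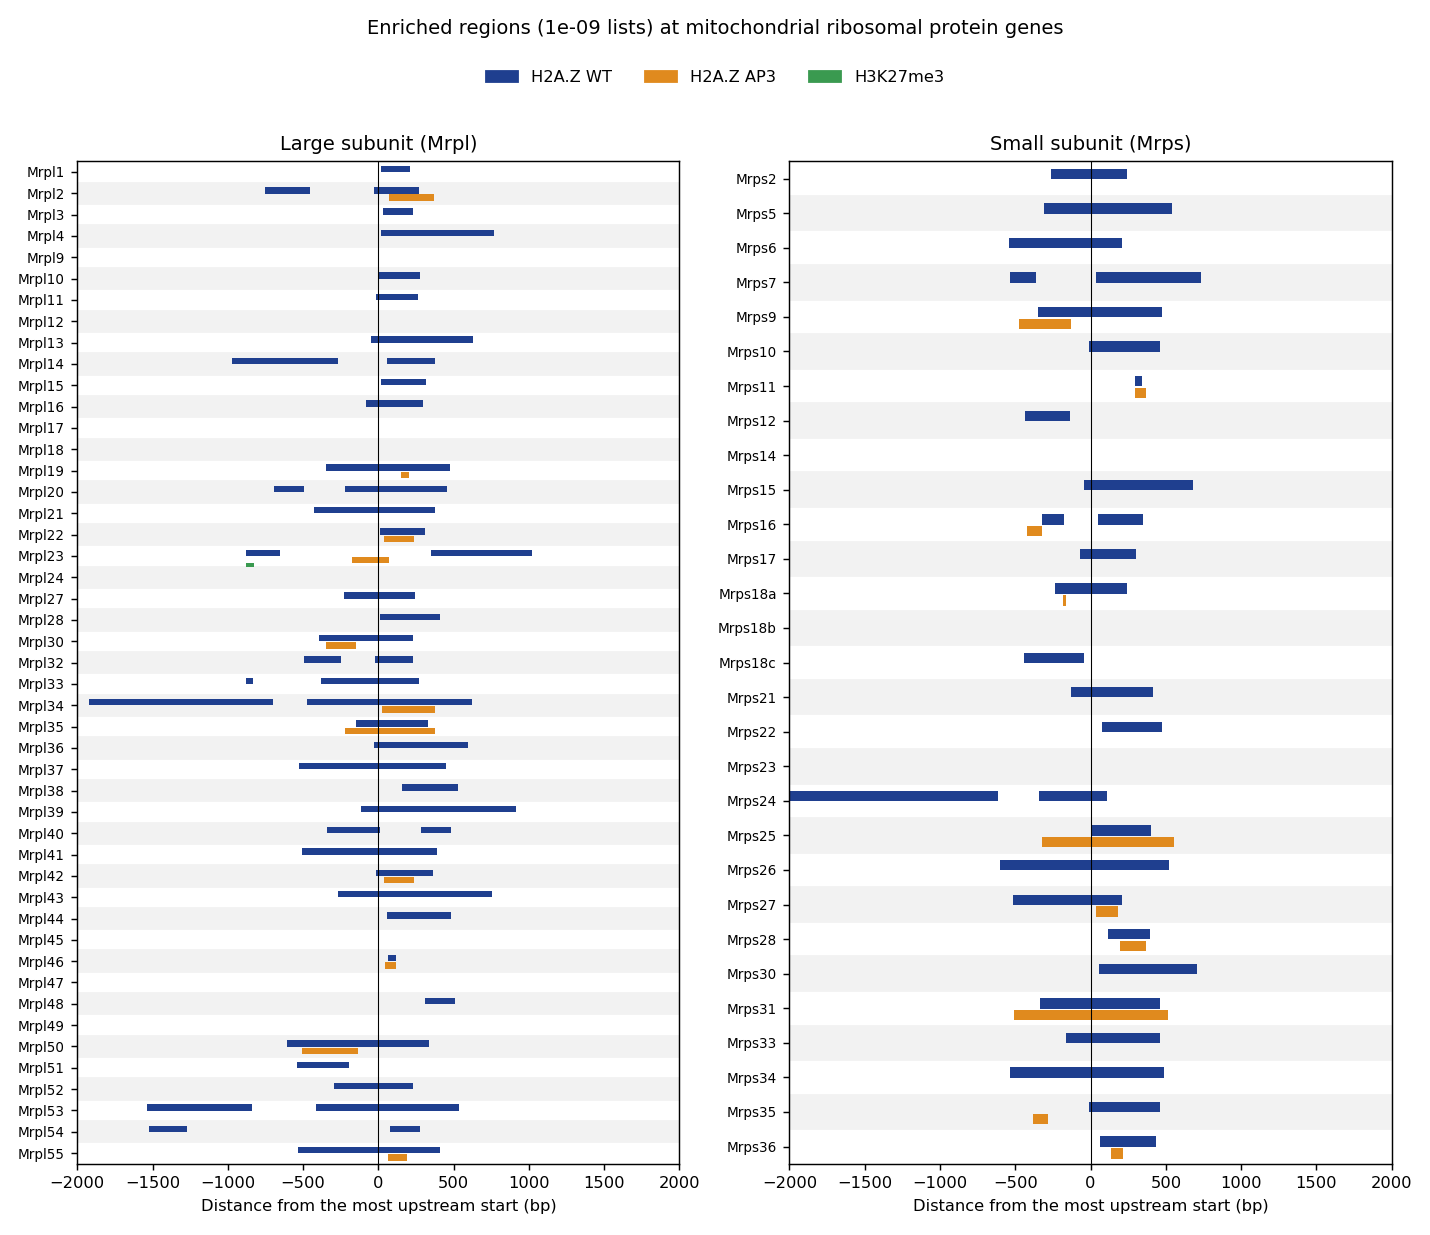
Regions of the 3 libraries at each of the 76 members against distance (bp) from the most upstream start, with 1 row per gene. H2A.Z WT is drawn at 65 members and clusters within 500 bp of the start, H2A.Z AP3 lies at 21 of them on this axis, and H3K27me3 is drawn at Mrpl23 only.

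Away from chromosomes 6 and 8, the mutant was longest at Mrpl48, Mrpl50 and Mrps9. Mrpl48 had 1150 bp of H2A.Z WT in 3 regions and 575 bp of H2A.Z AP3 in 1. Mrpl50 had 950 bp and 375 bp, and Mrps9 825 bp and 350 bp. At Mrpl48 the mutant lay at an internal start, chr7:107739401-107739975, and none was called at the most upstream start. At Mrpl50 and Mrps9 it lay upstream of the start only, within or at the edge of a wild-type region that covered the start.

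The mutant was found on either side of the most upstream start more often than over it. Among the 21 members with H2A.Z AP3 within 1 kb of that start, it lay only downstream in 11 (52.4%), only upstream in 6 (28.6%) and on both sides in 4 (19.0%), near the 43.5%, 34.8% and 21.7% of all genes with H2A.Z AP3 there. The start base was covered in Mrpl23, Mrpl35, Mrps25 and Mrps31. Those with upstream coverage only were Mrpl30, Mrpl50, Mrps9, Mrps16, Mrps18a and Mrps35. In profile the members had an H2A.Z AP3 peak 162 bp downstream (11 members, 14.5%), a lower one at -163 bp (8 members, 10.5%), and 4 members (5.26%) covered at -13 bp, where negative positions are upstream. All genes had the same shape, with 5.19% at 187 bp downstream and 4.15% at -288 bp. Of the H2A.Z AP3 bases within 2 kb of the most upstream start, 98.5% lay within 500 bp in members, 58.9% in all genes, 99.7% in cytosolic ribosomal protein genes and 58.9% in respiratory chain genes.

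At 3 members the mutant region did not overlap a wild-type region although both were called. At Mrpl23 an H2A.Z AP3 region of 250 bp, chr7:149718526-149718775, covered the start and lay between H2A.Z WT regions of 225 bp upstream and 675 bp downstream. At Mrps16 (chr14:21213101-21213200) and Mrps35 (chr6:146990901-146991000) an H2A.Z AP3 region of 100 bp lay upstream of the start, with midpoints at -373.5 bp and -335.5 bp. Neither of the 2 regions of 100 bp held a region of the stricter list at 1e-12.

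Members with and without the mutant had wild-type coverage of the same median length. The 22 members with H2A.Z AP3 had a median of 550 bp of H2A.Z WT (range 50 to 2325), and the 43 with H2A.Z WT alone also had 550 bp (range 200 to 3000). In all genes the medians were 900 and 550 bp. Of the 11 members with more than 1000 bp of H2A.Z WT, 3 had the mutant, next to 54.2% of such genes. Of the 24 with over 500 and up to 1000 bp, 8 had it, next to 35.2% of such genes. Of the 26 with over 250 and up to 500 bp, 9 had it, next to 27% of such genes. Of the 4 with up to 250 bp, 2 had it, next to 15.3% of such genes. With so few genes per class the member shares are imprecise. The CpG numbers of both groups overlapped, with medians of 52.5 with the mutant and 56 with the wild type alone.

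**Figure D5:**
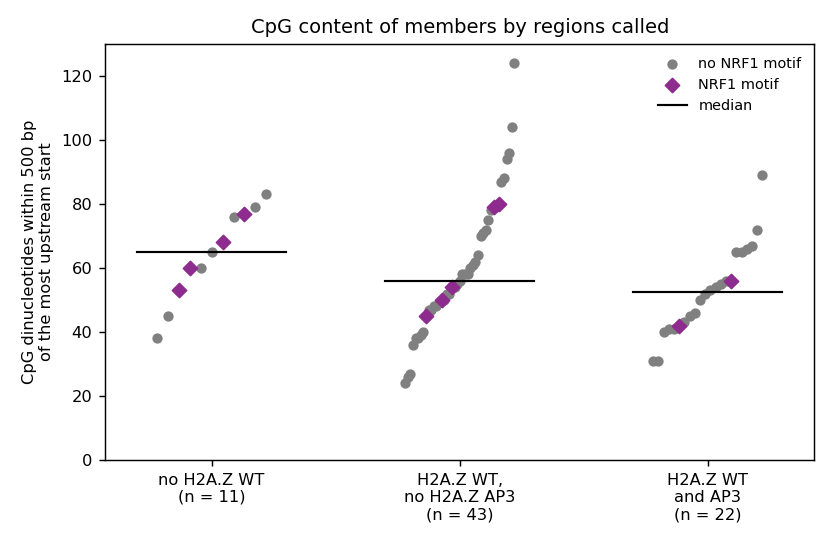
CpG number within 500 bp of the most upstream start for members without H2A.Z WT (n = 11), with H2A.Z WT and no H2A.Z AP3 (n = 43) and with both (n = 22), 1 point per gene with the group median as a line and diamonds for promoters with the NRF1 letters. The medians are 65, 56 and 52.5 and the ranges overlap.

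Members named Mrpl and Mrps, and members split by symbol number, had overlapping shares. These splits follow the symbols alone. Over all genes H2A.Z WT was called at 61.7% and H2A.Z AP3 at 23.2%. Among the 47 Mrpl genes 39 had H2A.Z WT (83.0%) and 12 had H2A.Z AP3 (25.5%, interval 15.3 to 39.5). Among the 29 Mrps genes 26 had H2A.Z WT (89.7%) and 10 had H2A.Z AP3 (34.5%, interval 19.9 to 52.7). Members were also split by symbol number into 44 whose numbers fall among those of bacterial ribosomal proteins and 32 with higher numbers, most of which are specific to mitochondria. The former had H2A.Z WT at 37 (84.1%) and H2A.Z AP3 at 11 (25%), and the latter at 28 (87.5%) and 11 (34.4%).

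H3K27me3 was called only at Mrpl23, over 50 bp at chr7:149717826-149717875. This stretch lay upstream of the start, within the first 50 bp of an H2A.Z WT region, and no H3K27me3 was called there in the list at 1e-12. Within 10 kb of a start 5 members had H3K27me3 (6.58%), against 22% of all genes, but within 50 kb 29 did (38.2%), against 39.0%. The low share of the members was thus seen near their starts and not at longer range.

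H2A.Z WT was also called at most other genes of mitochondrial translation. Over all genes the shares were 61.7% for H2A.Z WT and 23.2% for H2A.Z AP3. The list without an Mrp symbol and the assembly list, both at 66.7%, were near the former. Of 6 mitoribosomal proteins without an Mrp symbol, 4 had H2A.Z WT and 3 H2A.Z AP3. Dap3, the GTP-binding protein of the small subunit, had 400 bp of H2A.Z WT and no mutant, and Aurkaip1 and Chchd1 had neither form at 1e-09, although Aurkaip1 had 250 bp of H2A.Z WT at 1e-12. Of 17 mitochondrial aminoacyl-tRNA synthetases, 15 had H2A.Z WT (88.2%) and 6 H2A.Z AP3, with Rars2 and Yars2 lacking both. Of 13 translation factors, 12 had H2A.Z WT (92.3%) and 4 H2A.Z AP3. The exception was Tufm, the elongation factor that delivers aminoacyl-tRNA, with no H2A.Z WT and 175 bp of H2A.Z AP3. Mtrf1, of the release factor family, had 225 bp of H2A.Z WT and 550 bp of H2A.Z AP3. Of 15 gene models for assembly and rRNA modification, 10 had H2A.Z WT (66.7%, interval 41.7 to 84.8) and 4 H2A.Z AP3. Those without H2A.Z WT were Ftsj2, Rpusd4, Mrm1 and both models of Nsun4, and the last had 25 bp of H2A.Z AP3. Mrm1 had 750 bp of H2A.Z WT at 1e-12. None of these 4 lists held a gene with H3K27me3, which for the 13 translation factors allows a share of up to 23.1%.

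The proteins made by the mitoribosome join nuclear-encoded subunits of the respiratory chain, and of 75 genes for those, 48 had H2A.Z WT (64.0%, interval 52.7 to 73.9) and 12 had H2A.Z AP3 (16.0%, interval 9.40 to 25.9). Of 82 cytosolic ribosomal protein genes, 36 had H2A.Z WT (43.9%, interval 33.7 to 54.7) and 11 had H2A.Z AP3 (13.4%, interval 7.66 to 22.4). H3K27me3 was called at Rpl7 with 425 bp and at Rpl13a with 200 bp, and at no respiratory chain gene, which allows a share of up to 4%. The intervals of both lists for H2A.Z WT lay below that of the members, and those for H2A.Z AP3 overlapped it. The 61.7% of all genes with H2A.Z WT lay within the interval of the respiratory chain list and above that of the cytosolic list.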

How the data were processed

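ChIP-Seq had been performed in mouse ESCs, with 1 library each for the wild-type form, the AP3 form and H3K27me3, grouped by the genotype and antibody labels. Reads were aligned to mm9 with Bowtie 0.12.3, per the submitters' processing notes, which also name bedtools. In the study's methods, reads were extended and allocated to bins of 25 bp, and enriched bins were called per library with a Poisson model at 1e-09 and also had to exceed input by a minimal fold. The deposited values are region positions, with no score, p-value or count, and no replicate was pooled. A second deposited list per library, at 1e-12, served as an alternative.

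Genes and starts came from GENCODE vM1 on the same build (256 distinct starts for the members and 70018 for all genes). Regions, a minimum overlap of 1 bp, windows of 2 kb and covered bases were computed with Python 3.11.15, NumPy 2.4.6, SciPy 1.17.1 and pandas 2.3.3, sequence was read with pysam 0.24.0, and figures were drawn with Matplotlib 3.10.9. Overlap code was tested on simulated data. Binning limits positions to 25 bp, and because region length can depend on depth, covered bases are not amounts of histone. Full values were given by rule for members without H2A.Z WT, with H3K27me3 or with the mutant alone (of which there were none), for the 5 with the most bases of each H2A.Z form and for the Mrps18 paralogs, and from other lists for genes with H3K27me3 or, where 5 or fewer, without H2A.Z WT. Further genes were named after their values were seen. The members and gene lists were chosen with earlier results of these data known. One symbol of the lists, Noa1, was not found.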

Additional observations from a re-analysis of the deposited data

Results flagged for a closer look

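The stricter list of the H2A.Z AP3 library, at 1e-12, held sequence at 4 members that lay in no region of the list at 1e-09. A signal was thus called there only at the stricter threshold. They were Mrpl34, Mrps34 (200 bp), Mrpl14 (150 bp) and Mrpl21 (275 bp), and at the latter 3 no H2A.Z AP3 was called at 1e-09. At Mrpl34 the added region was chr8:73987301-73988200, 900 bp long. Over all genes 4.32% had such sequence in the H2A.Z AP3 library. In the H2A.Z WT library it occurred at Mrps23 (675 bp), Mrpl12 (425 bp) and Mrps34, or 3 members, against 5.26% of all genes, and the first 2 of these had no H2A.Z WT at 1e-09.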

How the results depend on the processing

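Each of 7 results was recomputed under 10 alternatives. Of the 70 values, 59 equalled the main value or differed from it by a factor of at most 1.5. With members kept only where no other gene starts in the window, 42 remained. Of these, 35 had H2A.Z WT (83.3%) and 14 had H2A.Z AP3 (33.3%), the same number as had both. Over all genes kept in this way the shares were 58.7%, 21.9% and, for both, 20.7%. The summed bases of the members were 20908 bp and 4150 bp, as fewer genes were counted. The H3K27me3 count was 0 in the list at 1e-12, 0 with windows of 500 bp, 0 with regions of at least 100 bp and 3 with windows of 5 kb. Without chromosomes 6 and 8 the H2A.Z AP3 bases were 3250 bp, or 8.64% of the wild-type bases. The share of members stayed between 82.9% and 88.2% for H2A.Z WT and between 22.4% and 33.3% for H2A.Z AP3. Each was above that of all genes in 10 of 10 alternatives, which reuse the same libraries and largely the same genes. For H2A.Z AP3 the main interval of 19.96 to 39.96 included the 23.2% of all genes, and genes with similar CpG numbers had 34.9%. No paired analysis was possible because each group had 1 library. Depth was unknown, so a gene without a region cannot be told apart from one with enrichment under the threshold.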

Other observations

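The side of the start on which H2A.Z lay differed between the members and the cytosolic ribosomal protein genes. Of 34 cytosolic ribosomal protein genes with H2A.Z WT within 1 kb of the most upstream start, 18 had it upstream only and 4 downstream only, whereas of 65 members 3 had it upstream only (4.62%) and 18 downstream only (27.7%). Among all genes with H2A.Z WT there, the shares were 10.6% and 28.7%, so the downstream share of the members was near that of all genes. The summed bases downstream were 0.589 times those upstream in the cytosolic list, 1.61 times in the members and 1.82 times in the respiratory chain list. For H2A.Z AP3, 9 of 11 cytosolic and 9 of 11 respiratory chain genes had it upstream only, against 6 of 21 members (28.6%). Among all genes with H2A.Z AP3 there the share was 34.8%, so the members were near all genes and the 2 small lists stood apart. These differences were not tested, and with 1 library each they have no replicate check.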
